A study of Homo sapiens with 8 samples.

Results

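The BPIF genes lie side by side on chromosome 20 and encode secreted proteins with a lipid-binding fold related to bactericidal/permeability-increasing protein. The 4 genes described here, BPIFA1, BPIFA2, BPIFB1 and BPIFB2, were found by matching Ensembl identifiers to symbols in GENCODE release 44. All 4 have values among the 43869 genes of the deposited table. They were chosen because their RNA, and on average their H3K27ac peaks, were already known to be low in some resistant lines of these same data. The differences from naive cells are therefore given as a description and no test is attached to them.

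BPIFA1, also called SPLUNC1, is an abundant protein of the fluid that lines the nose and large airways, where it limits sodium channel activity and bacterial growth. BPIFB1, or LPLUNC1, is made by airway goblet and submucosal gland cells, and BPIFA2 is the parotid secretory protein of saliva. BPIFB2 has the same fold and its role is less well known. H3K27ac, acetylation of lysine 27 of histone H3, marks active promoters and enhancers, and a wide stretch of the mark is usual at strongly used cell type genes.

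Values were examined for treatment-naive H3122 cells, a lung adenocarcinoma line with an EML4-ALK fusion, and for 3 derivatives with evolved resistance to ALK inhibitors. These were erCriz0 (0.5 µM crizotinib), erAlec0 (2 µM alectinib) and erLor0 (2 µM lorlatinib), each obtained in the study by raising the dose stepwise. RNA was taken from the resistant cells after a period without inhibitor, and the labels place the ChIP cells in DMSO. Each line gave 1 RNA-seq and 1 H3K27ac ChIP-seq library, so no difference has a replicate error, and no p-value is given. The values are DESeq2 rlog values, a log2 scale on which features with few reads are drawn toward their mean, and a change means the resistant line's rlog less the naive one. Changes of at least 1 in size were counted, the limit the study used for genes, which was applied here to peaks as well. In bulk cells, fewer cells with a transcript and less transcript per cell cannot be told apart. Read depth is unknown for these values.

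The labelled cell type was checked against its markers. Of 9 lung adenocarcinoma markers, 8 were expressed, which here means an rlog of at least 4.64, the log2 of 25 reads, in at least 1 library. The exception was NAPSA, with rlog values of 3.53 to 4.23. Of 7 markers of blood, endothelial and stromal cells, 6 had values, and only COL1A1 reached that level, at 9.49 in naive and 9.71 to 10.1 in resistant cells. The median RNA change over the 12701 expressed genes was -0.02 (erCriz0), 0.002 (erAlec0) and -0.004 (erLor0).

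The promoters of the 4 genes are shown first, since the peaks described below lie over them. They are RefSeq windows on GRCh38.p14, plus strand, from 250 bases before to 50 bases after the transcription start in RefSeq. Capitals mark matches on either strand to 5 motifs, the TATA box TATAAA, a forkhead motif TGTTTNC, an AP-1 motif TGANTCA, a C/EBP motif TTGCNNAA and an ETS motif CCGGAA.
BPIFB2, chr20:33007454-33007753: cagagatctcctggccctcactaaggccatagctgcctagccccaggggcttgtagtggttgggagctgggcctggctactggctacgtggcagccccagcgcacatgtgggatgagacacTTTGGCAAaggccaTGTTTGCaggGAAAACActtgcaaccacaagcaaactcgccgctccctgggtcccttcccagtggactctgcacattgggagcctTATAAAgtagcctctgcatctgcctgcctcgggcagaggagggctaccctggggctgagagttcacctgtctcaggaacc
BPIFA2, chr20:33161520-33161819: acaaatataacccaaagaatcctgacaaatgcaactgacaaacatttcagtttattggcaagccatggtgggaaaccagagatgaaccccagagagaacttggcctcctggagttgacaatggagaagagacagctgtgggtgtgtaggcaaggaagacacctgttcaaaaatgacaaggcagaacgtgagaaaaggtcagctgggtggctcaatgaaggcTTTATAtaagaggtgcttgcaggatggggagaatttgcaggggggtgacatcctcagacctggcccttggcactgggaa
BPIFA1, chr20:33235746-33236045: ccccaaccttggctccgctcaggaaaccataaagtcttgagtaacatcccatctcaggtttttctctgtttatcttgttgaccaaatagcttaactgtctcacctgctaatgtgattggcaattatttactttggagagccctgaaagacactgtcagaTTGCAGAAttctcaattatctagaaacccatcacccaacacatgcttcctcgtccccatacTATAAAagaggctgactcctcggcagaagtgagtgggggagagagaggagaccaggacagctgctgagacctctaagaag
BPIFB1, chr20:33282964-33283263: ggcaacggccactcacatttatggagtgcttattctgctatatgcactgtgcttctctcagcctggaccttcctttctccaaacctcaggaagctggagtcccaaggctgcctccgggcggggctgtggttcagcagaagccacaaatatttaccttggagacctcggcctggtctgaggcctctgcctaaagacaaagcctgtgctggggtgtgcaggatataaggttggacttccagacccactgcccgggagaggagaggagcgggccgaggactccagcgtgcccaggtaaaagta

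A TATAAA match lay 30 bases before the start in BPIFB2 and BPIFA1 and 29 bases before it, on the minus strand, in BPIFA2. TATAAA occurs in 11.5% of the 35116 promoter windows of the same length. BPIFB2 also held forkhead matches 115 and 105 bases before its start, on opposite strands, and a C/EBP match 129 bases before it. A C/EBP match lay 91 bases before the start of BPIFA1. Windows with a forkhead match make up 18% of all promoters, and those with a C/EBP match 10.5%. The window of BPIFB1 held none of the 5 motifs, and none of the 4 windows held the AP-1 or ETS letters, which occur in 7.71% and 17.2% of promoters. The search took exact letters only. The BPIFB1 window holds TATAAG, and that of BPIFA2 holds TATATAAG on the plus strand, which were not counted as matches. A match is a stretch of letters and not a measured binding site. The dinucleotide CG occurred 5 times in the window of BPIFB2, once in that of BPIFA2, 3 times in that of BPIFA1 and 8 times in that of BPIFB1, against a median of 14 over all promoters. RefSeq lists a second start of BPIFA2, 6391 bp further on, whose window is not shown.

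RNA of all 4 genes was lower in erAlec0 and erLor0 than in naive cells, whereas erCriz0 split the cluster. In erCriz0, BPIFB2 and BPIFA2 were lower by more than 2 on the log2 scale, BPIFB1 was close to naive and BPIFA1 was higher. At the limit of 1, 2 of the 4 genes were down in erCriz0, and all 4 were down in erAlec0 as well as in erLor0. Among all expressed genes 1.65%, 2.07% and 0.740% were down in these lines. The genes were chosen for these falls, so nothing is read from that difference.

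BPIFB2 (ENSG00000078898.7, chromosome 20 from 33007704 to 33023703 of hg38) had an RNA rlog of 9.13 in naive cells against 6.65 (erCriz0), 5.77 (erAlec0) and 5.69 (erLor0). All 3 resistant lines were low, with erAlec0 and erLor0 the lowest and 0.08 apart. The changes were -2.48, -3.36 and -3.44, which correspond to 5.59-fold, 10.2-fold and 10.8-fold lower values. Ranked by fall among expressed genes, it was number 4 in erCriz0, number 2 in erAlec0 and first in erLor0. BPIFB2 was chosen for its fall, so these ranks are only a description.

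BPIFA2 (ENSG00000131050.11, chromosome 20 from 33161768 to 33181412), the salivary gland protein, was also low in every resistant line and lowest in erAlec0 and erLor0. Its RNA rlog was 8.92 in naive cells against 6.83 (erCriz0), 5.75 (erAlec0) and 5.87 (erLor0). The changes of -2.09, -3.17 and -3.05 correspond to 4.25-fold, 9.0-fold and 8.27-fold lower values.

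BPIFA1 (ENSG00000198183.12, chromosome 20 from 33235995 to 33243311), the airway surface protein, departed from this pattern in erCriz0. Its RNA rlog was 8.29 in naive cells against 9.03 (erCriz0), 5.11 (erAlec0) and 5.26 (erLor0). It was the only one of the 4 genes that was higher than naive in any resistant line, by 0.74 or 1.67-fold in erCriz0, which is under the limit of 1. In erAlec0 and erLor0 it was lower by 9.08-fold and 8.17-fold. The rlog of erCriz0 exceeded that of erAlec0 by 3.92 and that of erLor0 by 3.77, the widest gaps between resistant lines in the 4 genes.

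BPIFB1 (ENSG00000125999.11, chromosome 20 from 33273480 to 33309871), the goblet and gland cell protein, had an RNA rlog of 9.82 in naive cells against 9.38 (erCriz0), 7.63 (erAlec0) and 7.12 (erLor0). Its falls in erAlec0 and erLor0 were the smallest of the described genes, and its change in erCriz0 was -0.43, inside the limit. In erAlec0 and erLor0 the changes were -2.19 and -2.70, or 4.57-fold and 6.48-fold lower. It was the only gene of the 4 for which erAlec0 and erLor0 lay more than 0.2 apart, at 0.51.

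Levels of different genes were compared after the log2 of the exon length in kb was subtracted, with lengths of 1081 to 3015 bp from GENCODE. In naive cells the 4 genes then lay close together, at 8.18 for BPIFA1, 8.23 for BPIFB1, 8.29 for BPIFB2 and 8.69 for BPIFA2 on this length-adjusted scale. In erCriz0 they spread out, from 5.81 for BPIFB2 and 6.60 for BPIFA2 to 7.79 for BPIFB1 and 8.92 for BPIFA1. In erAlec0 they ran from 4.94 to 6.03 and in erLor0 from 4.85 to 5.64. Without replicates it cannot be said which neighbours in these orders differ beyond their error.

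**Figure D1:**
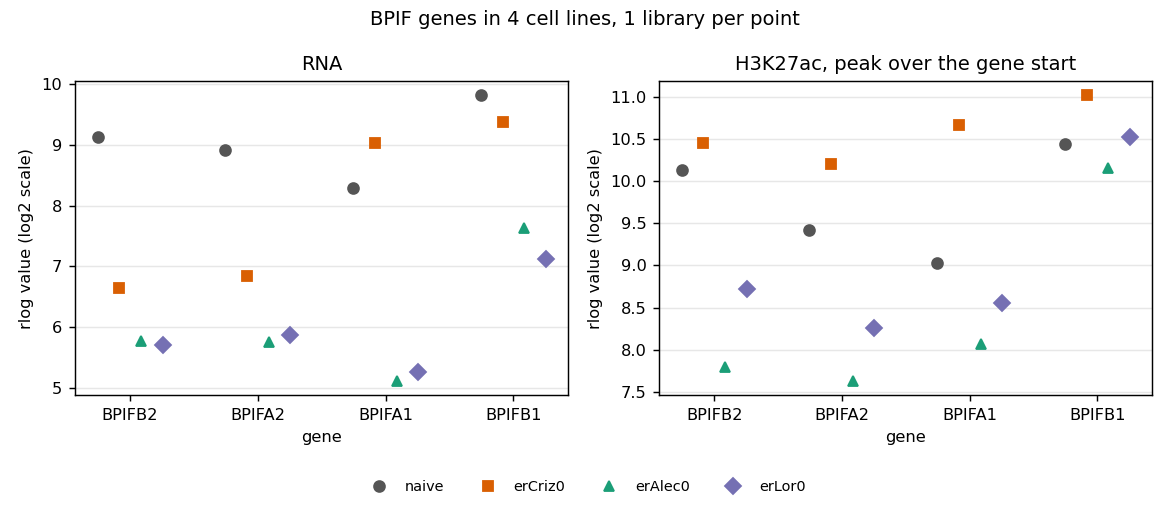
RNA (left) and H3K27ac at the peak over the gene start (right) of the 4 BPIF genes, as rlog values on a log2 scale, with 1 point per library. RNA of erAlec0 and erLor0 lies below naive for every gene, while the H3K27ac value of erCriz0 lies above naive for every gene.

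Each of the 4 genes had a wide H3K27ac peak over its start. The table pairs peaks and genes that lie up to 20 kb apart, and 37 of its 126470 peaks are paired with at least 1 of the 4 genes, 3 of them with both BPIFA1 and BPIFB1. Of the 37 peaks, 7 are at least 5 kb long, as are 5.02% of all peaks, whose median length is 522 bp. The start peaks of the 4 genes are 6931 to 9524 bp long and lay in naive cells above 95% to 98.5% of all peaks in rlog value, which is not adjusted for length. Peaks over the start of a gene tended to be higher in every resistant line. The median change over 12969 such peaks was 0.32 (erCriz0), 0.23 (erAlec0) and 0.38 (erLor0), whereas over all peaks it was 0 (erCriz0), 0.003 (erAlec0) and 0 (erLor0). After removal of the trend with peak level, an alternative chosen after the data had been seen, each start peak is also given below relative to peaks of its level.

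At BPIFB2 the start peak, on chromosome 20 from 33005264 to 33012341, had an rlog of 10.1 in naive cells against 10.5 (erCriz0), 7.79 (erAlec0) and 8.72 (erLor0). The mark was much lower in erAlec0 and erLor0, at -2.34 and -1.41, and close to naive in erCriz0, at 0.32. Relative to peaks of the same level these changes were -2.51, -1.71 and 0.02. Among peaks of at least 5 kb, 0.473% had a lower change in erAlec0, and among all peaks 0.0893%. The peaks were known to be low on average when the genes were chosen, so nothing is read from these shares. Of all peaks over a gene start 1.32% (erCriz0), 3.54% (erAlec0) and 2.48% (erLor0) were down by at least 1. In erCriz0 the RNA of BPIFB2 was thus 5.59-fold lower with the H3K27ac value of its start peak at or slightly above the naive one.

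At BPIFA2 the start peak, from 33161528 to 33169386, had an rlog of 9.42 in naive cells against 10.2 (erCriz0), 7.63 (erAlec0) and 8.26 (erLor0). As at BPIFB2, erAlec0 and erLor0 were low, by -1.79 and -1.16. The erCriz0 value was 0.78 above naive, and 0.47 above it relative to peaks of the same level, while the RNA of this gene was 4.25-fold lower. A longer peak that follows it, from 33172385 to 33184476 over the rest of the gene, changed by 0.32 (erCriz0), -1.16 (erAlec0) and -0.94 (erLor0).

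At BPIFA1 the start peak, from 33226729 to 33236252, lies mostly before the gene and ends 257 bp past its first base. It had an rlog of 9.02 in naive cells against 10.7 (erCriz0), 8.07 (erAlec0) and 8.55 (erLor0). The erCriz0 value was the highest, with a change of 1.64, which 98.8% of all peaks did not reach. It was 1.34 relative to peaks of the same level. Of all peaks over a gene start, 5.75% (erCriz0), 8.75% (erAlec0) and 8.87% (erLor0) were up by at least 1. In erAlec0 and erLor0 the peak changed by -0.95 and -0.47, both inside the limit, although RNA was 9.08-fold and 8.17-fold lower. Relative to peaks of the same level the changes were -1.13, past the limit, and -0.77. Quantile normalization, a scaling added afterwards, gave -1.13 and -0.71.

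At BPIFB1 the start peak, from 33270212 to 33277142, varied least. Its rlog was 10.4 in naive cells against 11.0 (erCriz0), 10.2 (erAlec0) and 10.5 (erLor0). The changes were 0.58, -0.28 and 0.09, all inside the limit. The erLor0 change turned to -0.05 under quantile normalization and -0.06 relative to peaks of the same level. RefSeq places the start of BPIFB1 9734 bp further on, and the promoter printed above belongs to that start. The peak that holds it, from 33277262 to 33293423, had nearly the same changes, 0.61 (erCriz0), -0.21 (erAlec0) and 0.14 (erLor0). The H3K27ac value at both starts of BPIFB1 therefore moved by less than 0.3 in the lines in which its RNA was 4.57-fold and 6.48-fold lower.

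**Figure D2:**
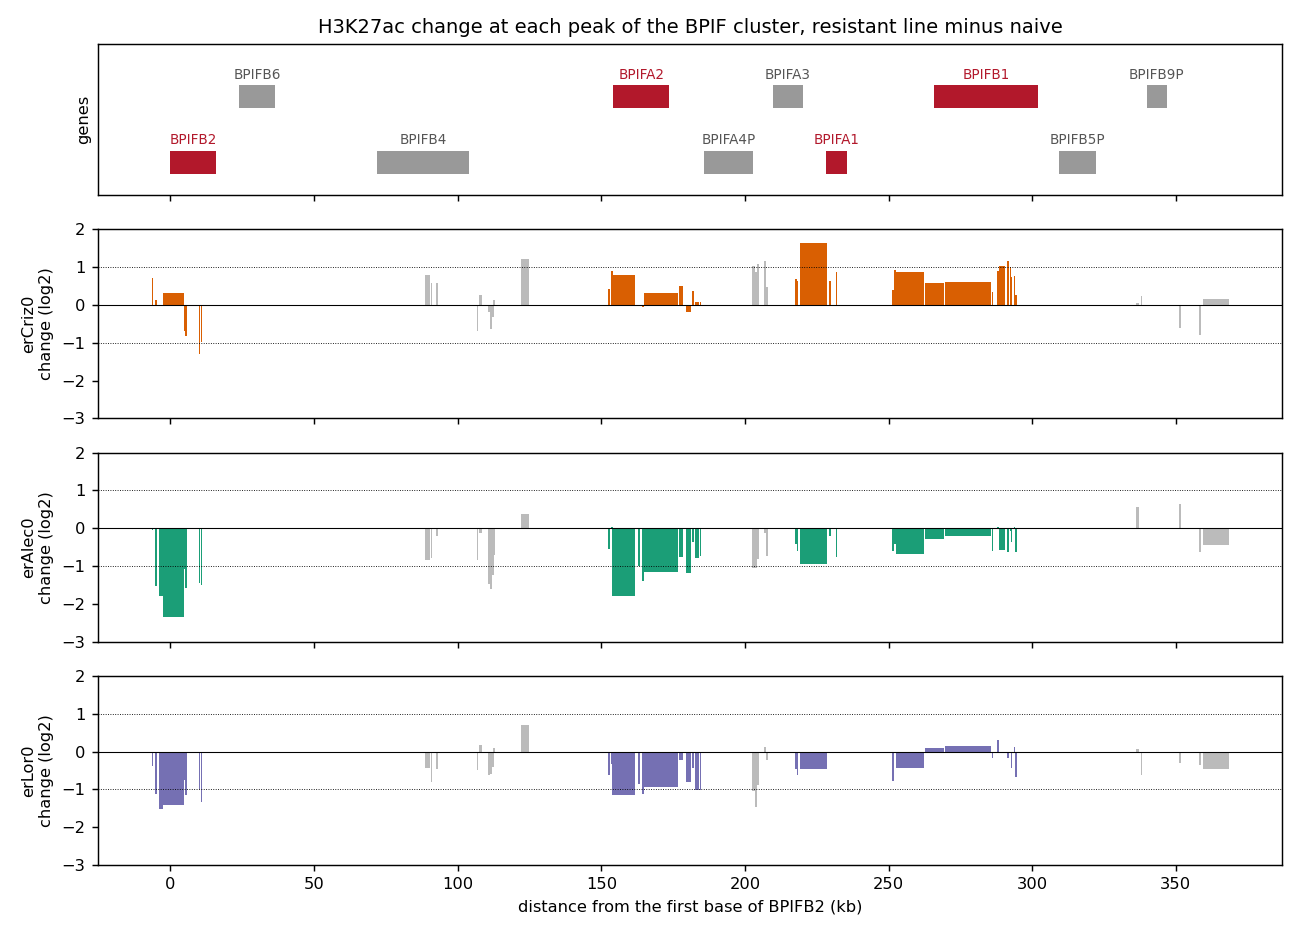
H3K27ac change against naive (log2 scale) at each peak in and around the BPIF cluster, by distance in kb from the first base of BPIFB2, with the genes drawn above (red for the 4 described genes, grey for other cluster genes). Bars have the width of the peak, at least 0.6 kb, and are coloured where the peak is paired with 1 of the 4 genes, and dotted lines mark changes of 1 and -1. The start peak bars of erAlec0 are lowest at BPIFB2 and shallowest at BPIFB1, and bars of erCriz0 at BPIFA1 and BPIFB1 all point up.

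In erAlec0 the changes of the 4 start peaks followed the order of the genes, at -2.34, -1.79, -0.95 and -0.28 from BPIFB2 to BPIFB1, a distance of 266 kb. The order was the same in erLor0, at -1.41, -1.16, -0.47 and 0.09. Peaks between the 4 genes did not all follow this order. The 10 peaks near BPIFB4, between BPIFB2 and BPIFA2, had medians of -0.82 in erAlec0 and -0.46 in erLor0, and 1 of them was above naive in both lines. RNA did not follow the order closely either, since BPIFA2 and BPIFA1 had nearly equal RNA changes in both lines. These comparisons share the naive library, so the similar order in erAlec0 and erLor0 is given side by side and not as a relation between them.

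Over the 37 paired peaks the median change was 0.50 (erCriz0), -0.63 (erAlec0) and -0.47 (erLor0). At the limit of 1, erCriz0 had 4 peaks up and 1 down, erAlec0 had 0 up and 11 down, and erLor0 had 0 up and 9 down. Among all peaks the shares were 7.00% up and 5.94% down for erCriz0, 14.1% and 9.41% for erAlec0, and 7.45% and 8.82% for erLor0. In erAlec0 34 of the 37 and in erLor0 33 of the 37 were below naive, against 8 in erCriz0. Over all peaks 48.7%, 49.9% and 49.3% were below naive in these lines, in the same order. Peaks of 1 cluster are neighbours in the same libraries and are not replicates. Of the 37, 18 did not reach an rlog of 3.91, the log2 of 15 reads, in any library, and these weak peaks carry little information. The number down in erAlec0 was 6 among the other 19, against 11 in all. The share down among all peaks that reach this level is not given.

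By gene, the 8 peaks of BPIFB2 had medians of -0.36 (erCriz0), -1.52 (erAlec0) and -1.13 (erLor0), and 7 of the 8 were down in erAlec0 and 5 in erLor0. Only the start peak and the peak from 33003877 to 33005205 among them reached an rlog of 3.91 in any library. The peaks of BPIFA2, 11 in number, had medians of 0.32, -0.79 and -0.87, with 4 down in erAlec0 and 4 in erLor0. Among all peaks 9.41% (erAlec0) and 8.82% (erLor0) were down. The 8 peaks of BPIFA1 had medians of 0.77, -0.61 and -0.44, and all 8 lay above naive in erCriz0 and below it in erAlec0 and erLor0, with none down by 1. For the 13 peaks of BPIFB1 the medians were 0.78, -0.42 and -0.05, and all 13 were above naive in erCriz0. Over all peaks 49.6% were above naive in erCriz0, and 48.7% (erAlec0) and 49.9% (erLor0) were below it. The only peaks with a median below naive in erCriz0 were those of BPIFB2. There the 4 short peaks inside the gene, after the start peak, changed by -0.69 to -1.30 in erCriz0, -1.09 to -1.58 in erAlec0 and -0.75 to -1.33 in erLor0. All 4 had rlog values under 3.91 in every library.

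Where the RNA and the start peak of a gene are set side by side, erCriz0 differed from the other lines. In erAlec0 and erLor0 both RNA and start peak were lower by more than 1 at BPIFB2 and BPIFA2, the deposited peak value was lower by less than 1 at BPIFA1, and it moved little at BPIFB1. In erCriz0 RNA and start peak were both higher at BPIFA1, and RNA was lower while the peak was not at BPIFB2 and BPIFA2. Other expressed genes with an RNA fall of at least 1 and a peak over their start numbered 145 (erCriz0), 181 (erAlec0) and 64 (erLor0). Their start peaks were above naive in 66.9%, 74.0% and 50% of cases and down by at least 1 in 2.76%, 3.31% and 14.1%. Over all start peaks the shares above naive were 79.1%, 68.2% and 79.1%. BPIFB2 and BPIFA2 were lower by more than 2 in RNA in each line, and BPIFA1 and BPIFB1 were so in erAlec0 and erLor0. Few other expressed genes with a start peak were. There were 1 (erCriz0), 7 (erAlec0) and 7 (erLor0) of them, of which 0, 2 and 1 had a start peak above naive. The BPIF genes were chosen for their RNA falls, so nothing is read from how few these others are.

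**Figure D3:**
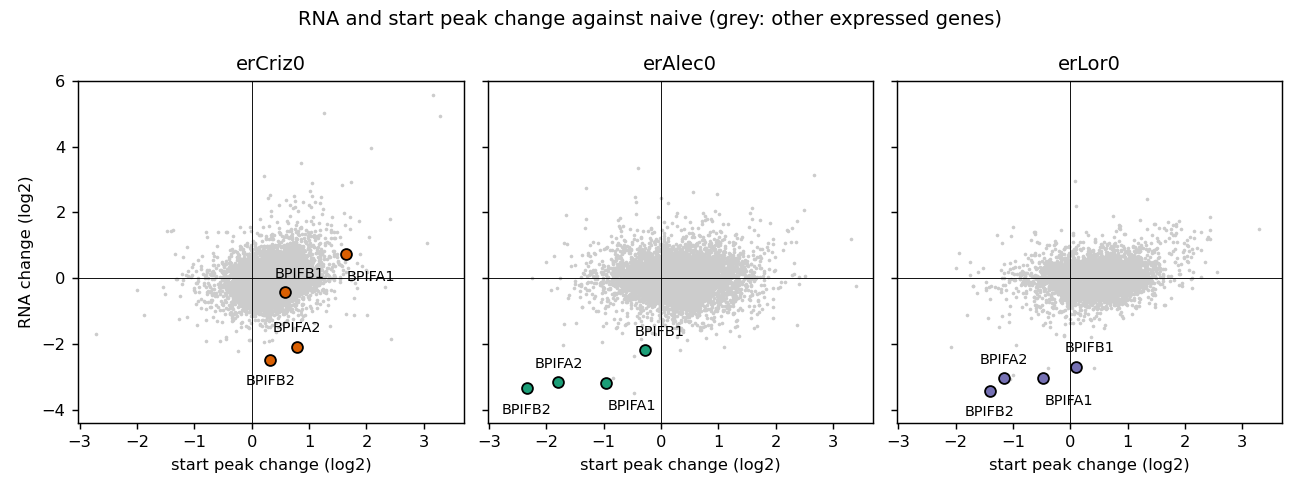
RNA change (y axis) against the change of the H3K27ac peak over the gene start (x axis), both resistant line minus naive on a log2 scale, for the 4 BPIF genes (coloured) and the other expressed genes with such a peak (grey). In erAlec0 and erLor0 the BPIF genes, which were chosen for their RNA falls, lie at the lower edge of the cloud. In erCriz0 BPIFB2 and BPIFA2 lie low but to the right of 0.

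The surroundings of the cluster had smaller median H3K27ac changes. Other peaks within 5 Mb of the 4 genes, 646 in number, had median changes of -0.21 (erCriz0), -0.20 (erAlec0) and -0.12 (erLor0). The median of the 37 peaks of the BPIF genes minus these came to 0.71, -0.43 and -0.35. RNA of the 74 other expressed genes in that window had medians of -0.38, -0.17 and -0.18. The part of these regional differences in the values of the 4 genes was not tested. On the far side of the cluster, the 9 peaks of CDK5RAP1 had medians of -0.38, -0.36 and -0.38, which are alike in the 3 lines. Single peaks among them differed, and the one from 33358776 to 33359353 changed by -0.60 (erCriz0), 0.65 (erAlec0) and -0.30 (erLor0). Some of these peaks, including that one, are also paired with pseudogenes of the cluster.

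Other genes of the cluster had little RNA. Of 7 such genes BPIFB3 had no values in the deposited table, and none of the other 6 reached an rlog of 4.64. BPIFB4, which encodes another member of the family, came closest, just short of that level in naive cells. It changed by -0.87 (erCriz0), -1.25 (erAlec0) and -1.11 (erLor0), the same direction as BPIFB2. BPIFB6 had an rlog of 1.55 in naive and 1.16 to 1.17 in resistant cells, the pseudogenes BPIFA4P and BPIFB9P were below 0, and BPIFA3 and the pseudogene BPIFB5P were listed at 0 in all 4 libraries. H3K27ac between the described genes moved nonetheless. The 5 peaks paired with BPIFA3 or BPIFA4P and with none of the 4 genes had medians of 1.03 (erCriz0), -0.82 (erAlec0) and -0.88 (erLor0). The strongest peak near BPIFB4, from 33129564 to 33132549, was the only 1 of 10 there that was above naive in each of the lines, by 1.23, 0.38 and 0.71.

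Genes outside the cluster were examined with lists chosen by function. Of 11 expressed genes that flank the cluster, none was up, and 4 (erCriz0), 2 (erAlec0) and 1 (erLor0) were down, beside 1.65%, 2.07% and 0.740% of all expressed genes. Their median changes were -0.51, -0.34 and -0.17, the same direction as most RNA changes of the 4 BPIF genes. E2F1, a transcription factor of the cell cycle, changed by -1.37, -1.61 and -0.61. DNMT3B, a DNA methyltransferase, and NECAB3 were down in erCriz0 only among the 3 lines, at -1.13 and -1.11.

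Of 30 airway secretory genes, 21 were expressed. At the limit of 1, erCriz0 had 2 up and 2 down, erAlec0 had 3 and 2, and erLor0 had 0 and 4. Their median change was 0.29 (erCriz0), 0.21 (erAlec0) and 0.06 (erLor0), against -0.02, 0.002 and -0.004 over all expressed genes. Up by at least 1 were 2.65%, 2.46% and 1.10% of expressed genes, and down were 1.65%, 2.07% and 0.740%. At the limit the list thus held changes in both directions in erCriz0 and erAlec0 and only falls in erLor0. Its medians were above 0. Of the mucins, the gel-forming MUC5AC changed by 0.09, 0.67 and 0.73 and MUC5B by 0.24, 0.71 and 0.50, from rlog values of 12.8 and 13.8 in naive cells. MUC1 changed by 1.88 (erCriz0), 1.71 (erAlec0) and 0.50 (erLor0). STEAP4, a metalloreductase, changed by 1.88 in erAlec0, the membrane mucin MUC16 by 1.41 in erCriz0 and CP, the copper carrier ceruloplasmin, by 1.32 in erAlec0.

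The 4 genes of the list that were down in erLor0 encode small secreted proteins. WFDC2, a protease inhibitor of airway secretions, changed by 0.29 (erCriz0), -1.24 (erAlec0) and -1.50 (erLor0). SLPI, another inhibitor of the same family, changed by -0.36, -0.28 and -1.17. LCN2, which binds bacterial iron carriers, changed by 0.90, -0.09 and -1.24. TFF3, a trefoil peptide secreted with mucus, was down in erCriz0 at -1.90 and in erLor0 at -1.25, and changed by -0.40 in erAlec0. TFF1, a second trefoil peptide, was down in erCriz0 alone among the lines, at -1.29, and SCGB3A1, a secretoglobin, in erAlec0, at -1.09. In erAlec0 and erLor0 every one of these changes was smaller in size than that of any of the 4 BPIF genes. The BPIF genes were chosen for their falls in these same data, so nothing is read from that contrast. SCGB1A1, the marker of airway club cells, had no values in the deposited table, SCGB3A2 was listed at 0 and PIGR and LTF had rlog values of at most 0.09.

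**Figure D4:**
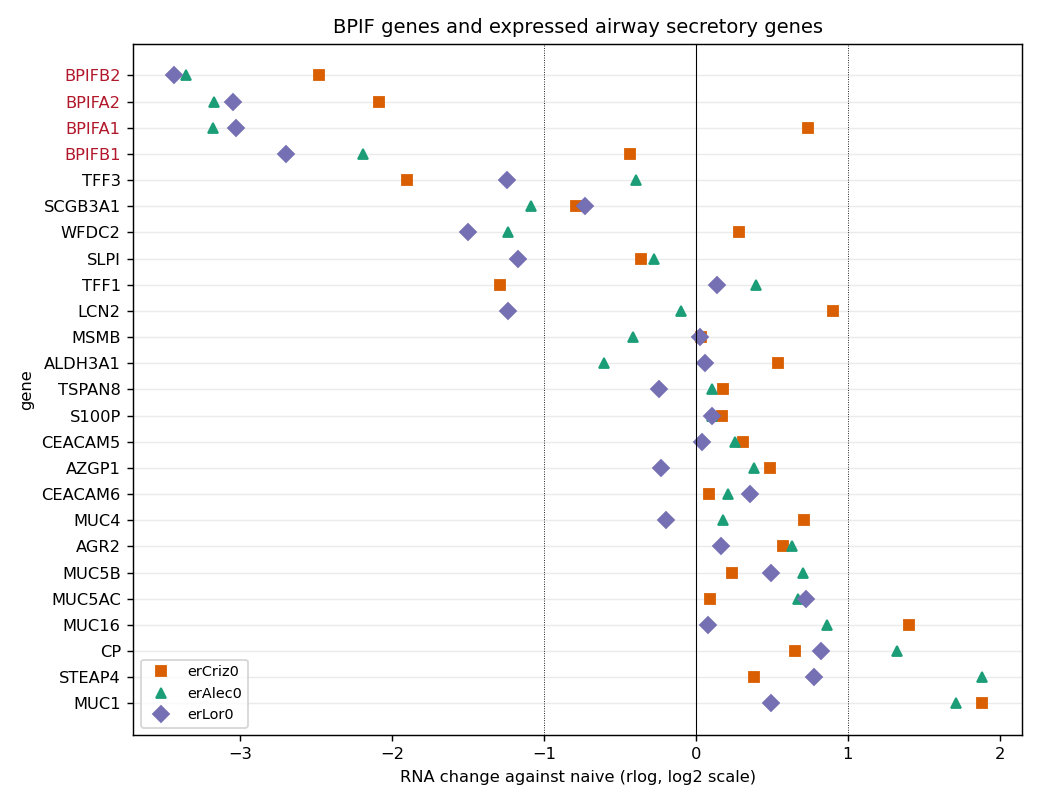
RNA change against naive (rlog, log2 scale, x axis) in erCriz0, erAlec0 and erLor0 for the 4 BPIF genes (red names) and the 21 expressed airway secretory genes, with dotted lines at 1 and -1. The BPIF genes, which were chosen for their falls, lie furthest to the left in erAlec0 and erLor0, and mucins lie near or to the right of 0.

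Of 19 transcription factors of secretory and airway epithelium, 14 were expressed and none was up or down by 1 in any line. Among all expressed genes 2.65% (erCriz0), 2.46% (erAlec0) and 1.10% (erLor0) were up by at least 1. Down were 1.65%, 2.07% and 0.740%. A count of none among 14 is near these shares, so it is not read as a result about these factors. SPDEF, which drives goblet cell genes, changed by 0.73 (erCriz0), 0.50 (erAlec0) and 0.62 (erLor0). FOXA1, a forkhead factor, changed by 0.07, 0.14 and 0.10 from an rlog of 12.2, and NKX2-1, the lung lineage factor, by -0.01, 0.45 and 0.50.

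The genes with the most similar RNA pattern were found by Euclidean distance between mean-centred rlog values over the 4 libraries, among expressed genes. For BPIFB2 the nearest was BPIFA2, at 0.33, and the reverse held as well. Next came XAGE1B, a cancer-testis gene, at 0.56, and PRSS2, a trypsinogen gene, at 0.61. For BPIFA2 these lay at 0.67 and 0.40. BPIFB1 was nearest to F5, which encodes coagulation factor V, at 0.50, followed by IGFBP3 at 0.54 and PRSS1 at 0.66. BPIFA1 had no close match. Its nearest genes were F5 at 1.56, BPIFB1 at 1.57 and PRSS1 at 1.65. PRSS1, PRSS2 and XAGE1B have near-identical relatives, so their read assignment is uncertain. The BPIF genes are paralogs, and whether they share reads was not tested. No exon of the 4 BPIF genes overlaps an exon of another gene in GENCODE.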

How the data were processed

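H3K27ac ChIP-seq and RNA-seq values of 4 of the lines were examined. The other samples of the series (erCriz1, erLor1, Lor 2w and pooled input) were not analysed here. The authors deposited 1 table of log2 values, rlog values from DESeq2, for peaks and genes at most 20 kb apart. Per the study's methods, RNA reads were aligned to hg38 with HISAT2 and counted with HTSeq-count, and ChIP reads were aligned with BWA, stripped of duplicates, filtered on mapping quality, used for MACS2 peak calls that were merged over 4 samples, and counted with featureCounts. Versions are not given in the sources used here. The table also holds the authors' correlations of peaks and genes with p-values, which were not used. No input subtraction is stated, and depth is unknown because rlog values keep no read totals.

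Differences from naive were computed per gene and per peak. No test was run, since each line has 1 library. Table positions count from 0 at the start and were changed to count from 1. Trends with peak level were removed as the median change in 50 bins of mean rlog. The genes named are the 4 genes, the rest of the cluster, the list genes with the largest changes past the limit (at most 8 a list) and the nearest 3 genes of each, with the peaks at gene starts. SLPI, SCGB3A1, MUC5AC, MUC5B, the transcription factors, the gland genes, the relatives elsewhere, the genes named as low and single peaks away from gene starts were named after their values were seen. Members, lists and comparisons were chosen with earlier results of these data known. The result of 1 flanking gene is not reported here. Scripts were tested on simulated data. Python 3.11.15, numpy 2.4.6, pandas 2.3.3 and matplotlib 3.10.9 were used.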

Additional observations from a re-analysis of the deposited data

Results flagged for a closer look

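Several results of erCriz0 and of another resistant line pointed in opposite directions from naive and lay at least 1 apart. With 1 library per line these differences were not tested. For BPIFA1 RNA, which changed by 0.74 in erCriz0, the value of erAlec0 minus erCriz0 was -3.92 and that of erLor0 minus erCriz0 was -3.77. For H3K27ac at the start peak of BPIFB2 the differences were -2.66 for erAlec0 and -1.73 for erLor0. The erCriz0 change of this peak was 0.02 relative to peaks of the same level, so its size in erCriz0 depends on the scaling, while it stayed above 0 under the 3 scalings run. At the start peak of BPIFA2 the differences were -2.57 and -1.94, and at that of BPIFA1 they were -2.60 and -2.11. No group has enough samples to look for outlying libraries.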

How the results depend on the processing

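The numbers of BPIF genes with an RNA fall of at least 1 were unchanged, at 2, 4 and 4, with limits of 1.5-fold or 2, after centring and after quantile normalization, and 0 of 24 RNA values of single genes moved by over 0.1 under the latter 2. Numbers of peaks depended on the limit. At 1.5-fold, the peaks that were down numbered 4 (erCriz0), 23 (erAlec0) and 18 (erLor0) of 37, and at 2 these were 0, 1 and 0. With only peaks that reach 15 reads on the rlog scale, 0 were down in erCriz0 and 6 in erAlec0, and the erAlec0 median was -0.76. The shares of all peaks under these settings are not given, so the counts stand without a background. The median over the 4 peaks paired with a described gene and no other was 0.65 (erCriz0), -0.27 (erAlec0) and -0.25 (erLor0). Over all peaks within the span of the genes it was -0.74 in erAlec0, and after centring it was -0.37 in erLor0. Windows of 2 and 10 Mb moved no difference from the surroundings by over 0.1, and no median changed sign. Of 36 start peak values under 3 scalings chosen after seeing the data, including removal of the level trend, 26 moved by over 0.1, and the sign changed at BPIFB1 in erLor0 only. No paired analysis was possible because each line has 1 library of each kind and no test was run. Neither the error of a single library nor read depth can be judged from these values.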

Other observations

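Relatives of the BPIF genes outside the cluster showed little RNA in any line. BPI and LBP, which bind bacterial lipopolysaccharide and lie further along chromosome 20, were listed at 0 or had an rlog of at most 0.52. PLTP, the phospholipid transfer protein, was at 2.51 in naive and 2.57 to 3.05 in resistant cells, and CETP and BPIFC stayed below 0.

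Salivary and serous gland genes, among which BPIFA2 is usually counted, were nearly silent too. Of 20 such genes 12 had values and 1 was expressed, ZG16B, a lectin-like secreted protein. Its rlog was 7.80 in naive cells against 7.55 (erCriz0), 7.05 (erAlec0) and 6.99 (erLor0), with changes of -0.25, -0.75 and -0.81. STATH, PRB4 and AMY1A were listed at 0 in all 4 libraries. The cystatin genes CST2 and CST4, on the other arm of chromosome 20, had low values of 3.63 and 2.36 in naive cells and were lower in each line. CST2 changed by -0.55 (erCriz0), -0.77 (erAlec0) and -0.76 (erLor0), and CST4 by -0.40, -0.53 and -0.53. Other weak genes of this list did not fall in this way. PRH1, at 3.73 in naive cells, changed by -0.09 (erCriz0), 0.18 (erAlec0) and -0.01 (erLor0). PIP changed by 0.06, -0.11 and -0.07, and LPO by 0.01, 0.08 and 0.23.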
